A study of Talpa occidentalis with 2 samples.

Results

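Divergent head-to-head gene pairs are neighbouring genes that are read away from each other, so that their 5′ ends face each other across a short gap. They were taken from the deposited gene annotation of the Iberian mole, Talpa occidentalis, build talOcc3. Successive models on 1 scaffold made a pair when the first lay on the minus strand and the second on the plus strand, they did not overlap, the start of the second minus the end of the first was at most 2000 bases, and both carried a gene symbol. This gave 352 pairs, or 704 of 23336 gene models, with 699 distinct symbols. They were 1.89% of 18636 successive named neighbours of any orientation that did not overlap, and 7.97% of the 4415 divergent ones. Another 63 pairs met the distance and strand criteria but had a partner without a symbol.

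The series mapped contacts of the FGF9 transcription start by circular chromosome conformation capture with sequencing in wild-type mole embryos of embryonic day 15. It holds 1 library from forebrain and 1 from hindlimb, both with the genotype label wild type, and no agent or allele is named for either. The annotation has no column for either library, so no value below compares tissues, and contact counts and sequencing depth were not analysed here. All values describe 1 assembled genome and its models, so genes are not replicates and no p-values are given.

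Genes arranged head to head can share a promoter region that starts transcription in both directions. In mammals such regions are often rich in CpG dinucleotides, and the arrangement is known for many housekeeping genes of metabolism, translation and DNA repair. Of the mole models, 98.2% begin and end with their coding exons. The distances therefore run between the facing ends of the modelled coding exons. Whether a model begins at a start codon was not read. Where both models are complete, the distances include the untranslated leader of both genes and any intron in it. They are not distances between transcription starts.

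Distances of the pairs ran from 14 to 1997 bases, with a median of 685.5 and quartiles of 234 and 1305. They were crowded at the short end: 47 pairs lay within 100 bases, 78 (22.2%) within 200, 148 (42.0%) within 500 and 214 (60.8%) within 1000. In the bins of 200 bases beyond the first, the number fell from 46 to between 22 and 36. The pairs were chosen by distance and strand, so these values are descriptions.

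Other close neighbours served for comparison. Within the same 2000 bases there were 669 convergent neighbours, whose 3′ ends face each other, and 1142 neighbours on 1 strand. Divergent pairs were 16.3% of these 2163 close neighbours. Convergent neighbours were spread evenly, with a median of 990 bases and 7.92% within 200. Of the same-strand neighbours, 638 were 2 models of 1 symbol. The other 504 had a median distance of 852 bases and 23.4% of them lay within 200, a share close to that of the divergent pairs. Among all neighbours, at any distance, the median was 28.6 kb for divergent and 10.4 kb for convergent ones, and 15.0% of convergent neighbours fell within the limit.

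**Figure D1:**
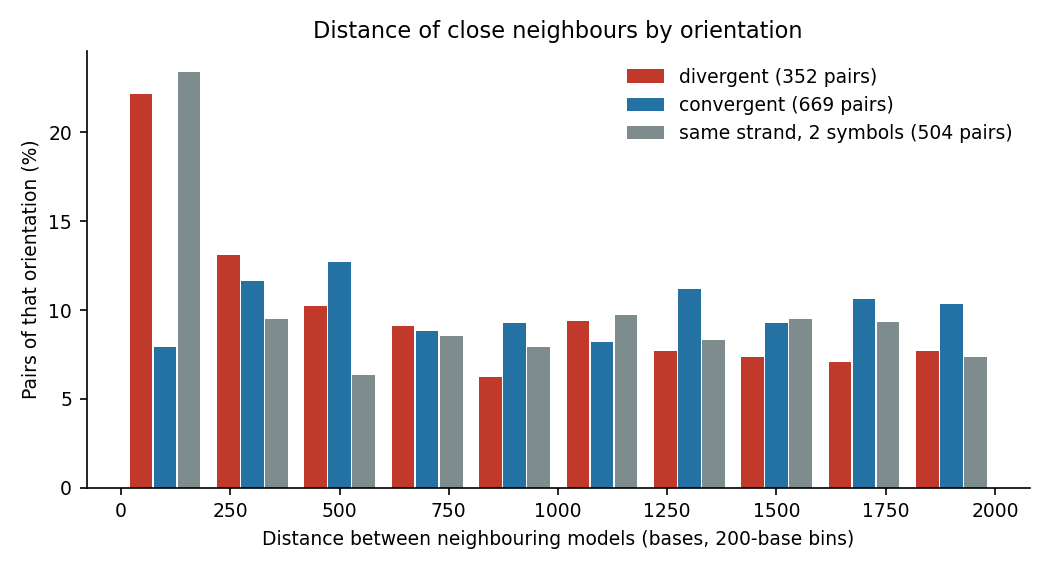
Share of close neighbours by distance in bins of 200 bases, for 352 divergent, 669 convergent and 504 same-strand neighbours with 2 different symbols. The first bin holds 22.2% of the divergent and 23.4% of the same-strand neighbours but 7.92% of the convergent ones.

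The closest pairs left little room between model ends. The sperm flagellum gene CFAP57 and the nucleolar gene EBNA1BP2 lay 14 bases apart on scaffold 2, CFAP57 at 76639467 to 76681334 with 22 coding exons and EBNA1BP2 at 76681348 to 76692392 with 11. NLE1, a ribosome biogenesis gene, and UNC45B, which encodes a myosin chaperone of muscle, were 21 bases apart on scaffold 25. Partner functions differed widely in these pairs. VTN, the gene of the plasma and matrix protein vitronectin, faced SARM1, an NAD-cleaving enzyme of axon degeneration, at 23 bases. The same distance separated RNF25 from STK36, PDIA3 from STRC, and GALNS from TRAPPC2L. In the gene table of a later mole build, 1 protein-coding gene lay between PDIA3 and STRC. Whether the STRC model takes in that gene was not tested. BRD9 and TRIP13, as well as TSPAN1 and PIK3R3, were 26 bases apart, and LMBRD2 and the cell cycle gene SKP2 were 28. Also at 14 bases were 2 models of 1 symbol, the neural adhesion gene L1CAM, on scaffold 30. L1CAM_copy2 had 7 coding exons with 2349 coding bases and L1CAM had 9 with 2121. Whether they are 2 genes or parts of 1 was not tested. In this pair, the deposited match with a named target transcript did not start at the first base of either model. The same held for CFAP57 and EBNA1BP2, VTN and SARM1, GALNS and TRAPPC2L, and TSPAN1 and PIK3R3. Whether these models begin at a coding start was not tested.

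The longest distances inside the limit were 1978 bases for PMEL and CDK2, 1981 for TGDS and GPR180, 1987 for MRPS11 and MRPL46, 1989 for ENOPH1 and HNRNPDL, and 1997 for BANF1 and EIF1AD. Just outside lay SBDS and TYW1 at 2002, BRCA1 and NBR1 at 2005, GPR108 and TRIP10 at 2008, AP4M1 and MCM7 at 2009, and FAM206A and IKBKAP at 2014 bases.

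The deposited match of each model with a named target transcript bears on how much leader could lie in the gap. Where the match starts at the first base of the model, the target bases before it went unmatched. They can be untranslated leader or, in a partial model, missing coding sequence, and which of these cannot be told here. C18orf54_copy2, a single-exon model with 411 coding bases, had 1533 of them. Without pairs that have a copy-suffix partner, a choice made after seeing the data, these bases were known for both partners of 100 pairs. The median distance of these pairs was 724.5 bases, and the summed unmatched bases had a median of 475. The sum exceeded the distance in 32 of these pairs, among them 18 of the 23 within 200 bases and 1 of the 41 over 1000. With copy-suffix partners included, the same held for 35 of 112 pairs, 19 of 25 within 200 bases and 3 of 48 over 1000, and 2 of those 3 had a copy-suffix partner. HARS2 and HARS, with 13 coding exons each, had 223 and 423 unmatched bases and a distance of 343. Introns in a leader were not read, and the species of these transcripts is not stated.

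Mitochondrial genes were the most frequent of the functional groups read from symbol lists. Of all 16075 symbols, 4.35% were in a divergent pair, 8.23% in a close convergent and 8.77% in a close same-strand one. Of 41 symbols of the NDUF group, the subunits and assembly factors of respiratory complex I, 12 (29.3%) were in a divergent pair, 8 (19.5%) in a convergent and 7 (17.1%) in a same-strand one, so all 3 shares exceeded those of all symbols. Their pairs had a median distance of 198 bases. NDUFA9 faced AKAP3_copy2 at 83 bases, NDUFA2 faced the splicing gene IK at 128, and NDUFAF2 faced ERCC8, a gene of transcription-coupled repair, at 160. NDUFB8 and HIF1AN, which encodes an oxygen-dependent hydroxylase of the hypoxia pathway, were 173 bases apart.

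Of 66 mitochondrial ribosomal protein symbols, 15 (22.7%) were in a divergent pair, 6 (9.09%) in a convergent and 7 (10.6%) in a same-strand one. MRPL47 faced NDUFB5 on scaffold 4 at 95 bases, with MRPL47 at 26070574 to 26082926 and NDUFB5 at 26083021 to 26097068. MRPL10 faced LRRC46 at 256 bases, MRPL13 faced the MDM2-binding gene MTBP at 375, and MRPS24 faced a 2-exon QSER1_copy5 model at 441. MRPS11 and MRPL46, both of the mitochondrial ribosome, were the 1 pair with both partners in this list. MRPL43 lay 676 bases from TWNK, the helicase gene of mitochondrial DNA. In the succinate dehydrogenase pair, SDHD on scaffold 14 at 12122564 to 12127517 faced the import chaperone gene TIMM8B at 12120780 to 12122329, across 235 bases. Another model, C11orf57 on the plus strand, reached 213 bases into that gap.

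Cytosolic ribosomal proteins, RNA polymerase and Mediator, and transfer RNA synthetases followed. Of 79 cytosolic ribosomal protein symbols, 14 (17.7%) were in a divergent pair, 14 (17.7%) in a convergent and 20 (25.3%) in a same-strand one. RPS25 faced the vesicle tethering gene TRAPPC4 at 45 bases, RPL10 faced the actin crosslinker gene FLNA at 61, RPL9 faced the lipoate synthase gene LIAS at 149, and RPS28 faced NDUFA7 at 164. Since this family has many single-exon copies, the models matter: RPL5_copy4 and RPS3A had 1 coding exon, and RPL37A_copy6 had 3. Of 37 transfer RNA synthetase symbols, 4 (10.8%) were in a divergent pair, 5 (13.5%) in a convergent and 8 (21.6%) in a same-strand one, so the divergent share was the lowest of the 3. HARS2 and HARS, the mitochondrial and cytosolic histidine enzymes, lay 343 bases apart on scaffold 3 at 53288989 to 53296857 and 53297200 to 53308238, each with 13 coding exons and with 1512 and 1530 coding bases. SARS2 and MRPS12, which both serve mitochondrial translation, were 552 bases apart, and EARS2 faced UBFD1 at 1824. Of 55 RNA polymerase and Mediator symbols, 7 (12.7%) were in a divergent pair, 8 (14.5%) in a convergent and 8 (14.5%) in a same-strand one. All 7 distances lay between 232 and 510 bases. MED22, a Mediator subunit gene, faced RPL7A at 232 bases, MED20 faced the ribosome biogenesis gene BYSL at 287, and MED19 faced TMX2 at 413. POLR1C, a subunit of RNA polymerases, faced YIPF3 at 306 bases.

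**Figure D2:**
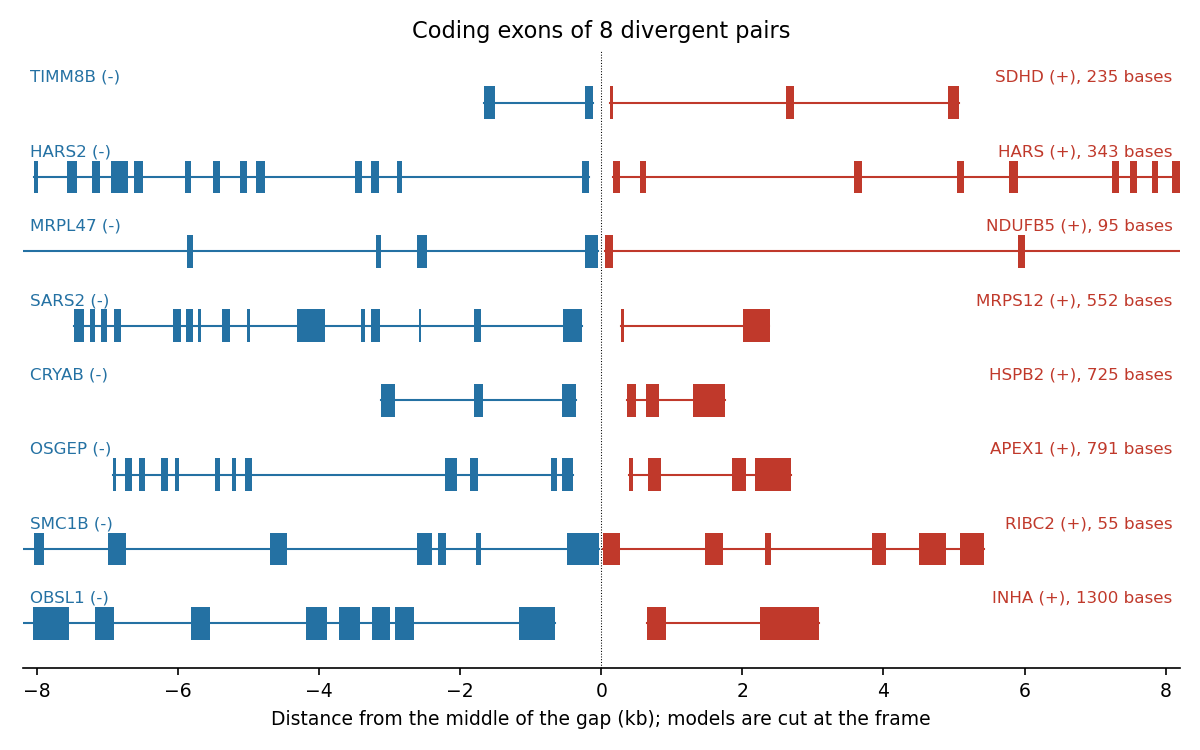
Coding exons of 8 pairs drawn to scale around the middle of the gap, with minus-strand models in blue and plus-strand models in red. The gaps run from 55 bases for SMC1B and RIBC2 to 1300 bases for OBSL1 and INHA, and models that extend past the frame are cut.

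Genome maintenance genes were nearer the background. Of 135 replication and repair symbols, 11 (8.15%) were in a divergent pair and 21 (15.6%) in a convergent one. RECQL5, a DNA helicase gene, faced SAP30BP_copy2 at 160 bases. RAD51B, a recombination gene with 12 coding exons, faced ZFYVE26 with 44 at 549 bases. XRCC1 faced PINLYP at 705 bases, APEX1, the main abasic site nuclease, faced OSGEP at 791, and PALB2, which links BRCA1 and BRCA2, faced DCTN5 at 1345. In cell division, 11 of 131 symbols (8.40%) were in a divergent pair, 14 (10.7%) in a convergent and 11 (8.40%) in a same-strand one. The kinetochore genes CENPO, CENPT, CENPQ and CENPK faced PTRHD1 at 98, THAP11 at 101, RPL5_copy4 at 442 and PPWD1 at 1278 bases. The spindle motor gene KIF4A_copy2 faced PDZD11 at 90 bases. NUSAP1 and OIP5, both of mitosis, were 1404 bases apart. The proteasome had 4 of 48 symbols (8.33%) in a divergent pair and 4 in a convergent one, with PSMA2 facing MRPL32_copy3 at 686 bases, PSMC5 facing FTSJ3 at 1107, PSME2 facing the ubiquitin ligase gene RNF31 at 1133 and PSMB1 facing TBP, the TATA-binding protein gene, at 1875. The splicing list, read from symbols, had 3 of 56 (5.36%). In it, SF3A1 faced CCDC157 at 49 bases and SNRPA faced C19orf54 at 570. LSM12, counted by its symbol and not by a known role in splicing, faced the glucose phosphatase gene G6PC3 at 124.

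Developmental transcription factors, solute carriers, zinc finger genes, olfactory receptors and chemokines had shares below the 4.35% of all symbols. Except for solute carriers, their shares in a close convergent pair were also below the 8.23% of all symbols. Those shares were 4.31% for zinc finger genes, 2.25% for olfactory receptors and 5.05% for chemokines and interleukins. Of 145 developmental transcription factor symbols, FOXA3 alone was in a divergent pair (0.690%), 1567 bases from the polyadenylation gene SYMPK, and 5 (3.45%) were in a convergent pair. Of 343 solute carriers, 5 (1.46%) were in a divergent and 32 (9.33%) in a convergent pair, the closest being SLC39A9, a zinc transporter gene, with ERH at 996 bases. SLC25A32 faced DCAF13 at 1212 bases, SLC25A11 faced RNF167 at 1682 and SLC39A7 faced the retinoid receptor gene RXRB at 1805. Zinc finger genes had 4 of 255 (1.57%), with ZNF830 facing the chaperonin gene CCT6B at 44 bases, ZSCAN29 facing TUBGCP4 at 138, ZNF319 facing USB1 at 188 and ZNF511 facing TUBGCP2 at 1106. Both TUBGCP genes encode proteins of the gamma-tubulin complex. Olfactory receptors had 2 of 267 (0.749%), which faced each other as OR4A15 and OR4C6_copy3 at 1048 bases. Chemokines and interleukins had 2 of 99 (2.02%), CXCL16 facing ZMYND15 at 165 bases and CCR10 facing CNTNAP1 at 1435. CCR10, counted in this list, is a chemokine receptor gene. Histones were above the 4.35%, with 2 of 21 symbols (9.52%), both in 1 pair, HIST2H3C_copy2 and HIST2H2BE_copy2, at 311 bases on scaffold 47. Their shares in a convergent pair, 14.3%, and in a same-strand one, 23.8%, were both higher than the divergent share. The 1 match among 71 symbols that begin with KRT, KRTCAP2, encodes a subunit of oligosaccharyl transferase and no keratin. The 40 collagen symbols had 0. Symbols that begin with TMEM gave 11 of 218 (5.05%), and the list of cilium genes and CCDC names gave 10 of 231 (4.33%), both near the 4.35% of all symbols. TMEM256 faced the synaptic adhesion gene NLGN2 at 72 bases, TMEM198 faced CHPF at 93, TMEM234 faced the translation initiation gene EIF3I at 151 and TMEM167B faced TAF13_copy2 at 188. Beside CFAP57 and CCDC157, CEP89 faced the repair gene FAAP24 at 45 bases and CCDC87 faced CCS, the copper chaperone of superoxide dismutase, at 61.

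**Figure D3:**
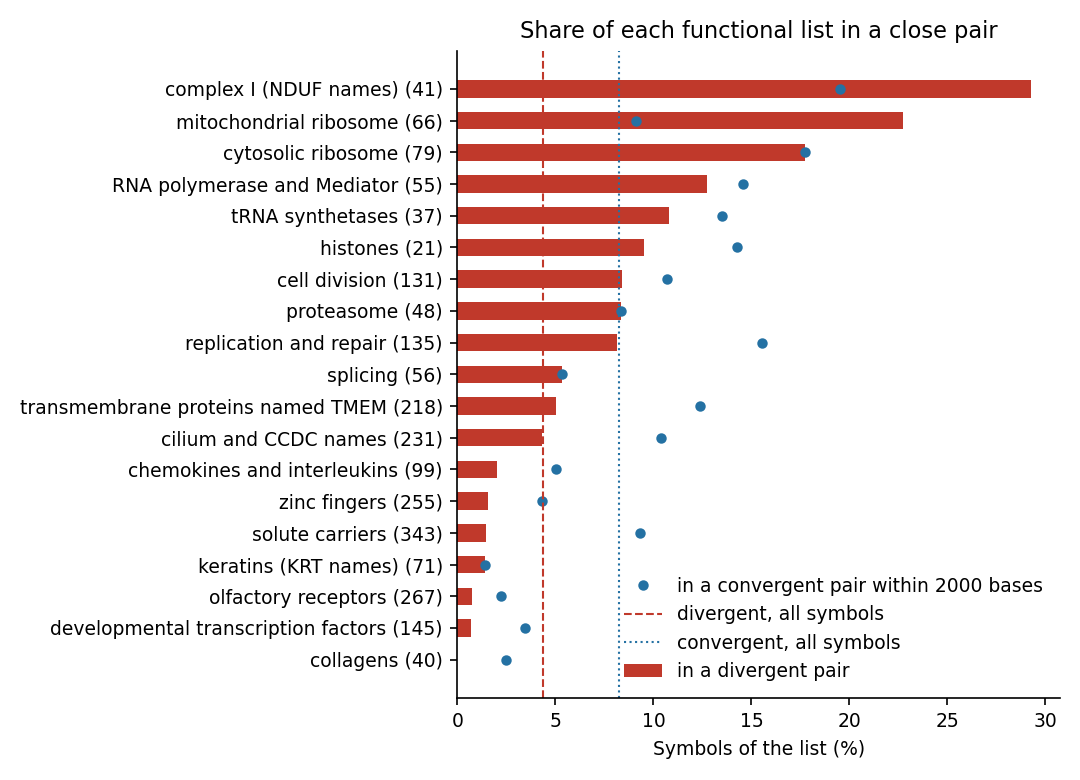
Share of the symbols of each list found in a divergent pair (bars) and in a convergent pair within 2000 bases (dots), with the number of symbols in brackets and the shares of all symbols as lines at 4.35% and 8.23%. The NDUF and mitochondrial ribosomal lists lie farthest above the divergent line, and collagens, at 0, farthest below.

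A partner in at least 1 list was found in 103 pairs, and 15 pairs had both partners listed. In all, 118 member symbols (16.9%) were in a list, near the 14.5% of all symbols. Only in 5 of these 15 did both belong to the same list: the histone pair, HARS2 and HARS, the olfactory pair, NUSAP1 and OIP5, and MRPS11 and MRPL46. Partners of 1 family were also sought by a shared name stem. This match missed the olfactory pair and CD3D and CD3G, at 1574 bases, and no such count is given for other neighbours. Of 14 pairs with a shared stem, 4 consisted of 2 models of 1 symbol (L1CAM, SPINT1, COASY and TMED9). A single-exon model was a partner in those of SPINT1 and COASY. Of 669 close convergent neighbours, 7 were 2 models of 1 symbol. The other 10 included DCST1 and DCST2, membrane proteins needed by sperm for fertilisation, at 280 bases with 16 and 15 coding exons. ABCG5 and ABCG8, which together form the sterol exporter of liver and gut, were 397 bases apart, and the nuclear matrix genes SAFB2 and SAFB 650, with 21 coding exons each. WDR83OS and WDR83 at 380, METTL1 and METTL21B at 1550, SMAD5 and SMAD5-AS1, the latter named as its antisense RNA but modelled with 195 coding bases, at 861, NXPE4 and NXPE2 at 899 and PTGR1_copy2 and PTGR2 at 725 bases share a name stem.

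As the series' title names intersexuality, some genes of reproduction were picked out after their distances were seen. INHA, the alpha subunit of the gonadal hormone inhibin, lay on scaffold 23 at 25574839 to 25577269 and faced OBSL1 at 1300 bases. SHBG, which encodes the sex hormone binding globulin, faced SAT2 at 1612 bases. Of the meiosis genes, SMC1B, a cohesin subunit, faced RIBC2 at 55 bases, STAG3, another, faced GPC2 at 471, TRIP13 faced BRD9 at 26, MCM8 faced TRMT6 at 984 and MSH5 faced CLIC1 at 1709. Of the sperm genes, CATSPERD faced LONP1 at 430 bases, TSSK3 faced FAM229A at 655, TSSK6 faced NDUFA13 at 824 and KLHL10 faced NT5C3B at 1967. HSD11B1L faced C19orf70 at 658 bases.

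A list of 55 human head-to-head pairs, written from general knowledge and not checked against a human annotation, was then looked up. Both partners had a model for 49. Of these, 41 were adjacent and head to head in the mole and 12 lay within 2000 bases. Among the 12 were TIMM8B and SDHD at 235, HARS2 and HARS at 343, PQBP1 and TIMM17B at 364, SARS2 and MRPS12 at 552, CRYAB and HSPB2, both small heat shock proteins, at 725, OSGEP and APEX1 at 791, TCP1 and MRPL18 at 881, DCTN5 and PALB2 at 1345, PARD6A and ACD at 1372, NUSAP1 and OIP5 at 1404, and TBP and PSMB1 at 1875 bases.

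Many listed pairs had the arrangement over longer distances between model ends. Over 2000 and up to 5000 bases apart were 15, among them BAP1 and PHF7 at 2348, BRCA2 and ZAR1L at 3320, SON and GART at 3978 and PRKDC_copy2 and MCM4 at 4333. Another 8 lay farther apart, up to NPAT and ATM at 47095 bases. The other 6 exceeded that distance and included the basement membrane collagen pairs COL4A4 and COL4A3 at 67.1 kb, COL4A1_copy3 and COL4A2_copy2 at 110 kb and COL4A6 and COL4A5 at 296 kb. Tail to tail lay 3 listed pairs, among them POLG and FANCI, and ETFDH and PPID. As the list was not checked, these entries may be errors of the list. ETFDH faced C4orf46 at 718 bases. In 5 listed pairs, other models lay between. One of them was the mitochondrial chaperonin pair HSPD1 and HSPE1, met head to head only as single-exon copies on scaffold 4 with 39 models between. The 11-exon HSPD1 model, on scaffold 23, faced the 8-exon model of MOB4, a Hippo pathway gene, at 1973 bases, while the 5 HSPE1 models had 1 coding exon each and lay on other scaffolds. The annotation held no multi-exon HSPE1 model. Whether an HSPE1 gene without a model lies between HSPD1 and MOB4 cannot be told here.

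**Figure D4:**
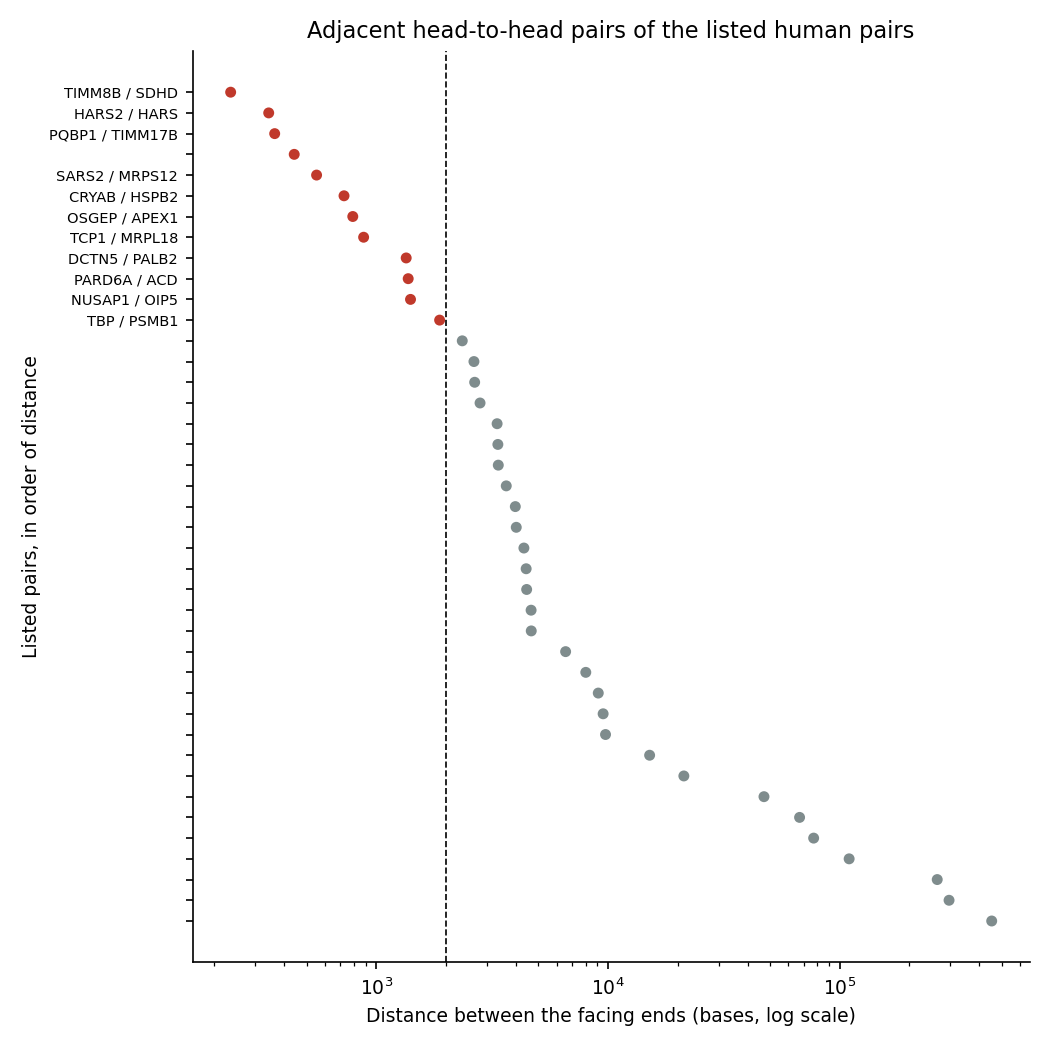
Distance between the facing ends, on a log axis, for the 41 listed human head-to-head pairs that were adjacent and head to head in the mole annotation, with names for some of the members. The 12 pairs left of the dashed line at 2000 bases are members (red), and the other 29 (grey) reach from 2348 to 452757 bases.

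Member models were compact, but not more so in span than those of the other close neighbours. They had a median of 7 coding exons (quartiles 4 and 12), 1191 coding bases and a span of 7.39 kb, and the median first intron between coding exons was 779.5 bases. All named models had medians of 6 exons, 1077 coding bases, 8.62 kb and 1351 bases. Divergent neighbours farther than 2000 bases apart had the same median of 7 exons and a span of 11.8 kb, with a first intron of 1576 bases. Their coding length, 1172 bases, was also near that of the members. Convergent models within 2000 bases were closer to the members in span and first intron but not in exons and coding length, with 8 exons, 1288.5 coding bases, a span of 6.73 kb and a first intron of 585 bases. Close same-strand models had medians of 6 exons, 1074 coding bases, a span of 5.07 kb and a first intron of 562 bases. Models spanning at least 100 kb made up 1.42% of members (10 of 704) and 5.77% of all named models. They were 1.05% of close convergent and 1.11% of close same-strand models.

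The model sources differed as well. EVM, a program that merges evidence into 1 model, made 616 of the 704 members (87.5%), against 69.7% of all named models. The aligner exonerate made 41 and a source named ALN 47. Single-exon models were 40 of the members (5.68%) against 19.4% of all named models, and models with a copy suffix were 52 (7.39%) against 23.5%. Close convergent models were near the members, with 90.1% from EVM, 4.86% single-exon and 7.70% with a copy suffix. For close same-strand models these shares were 78.1%, 15.5% and 42.3%. Restriction to EVM models removes the difference in source. The median span was then 7.92 kb for members, 7.03 kb for close convergent models and 6.56 kb for close same-strand models. It was 17.0 kb for distant divergent models and 14.3 kb for all named ones. Exon number and coding length changed little along the distances: the 78 pairs within 200 bases had medians of 8 exons and 1263 coding bases, and the 138 pairs from 1001 to 2000 bases had 7 and 1149. The share of EVM models was 94.2% in the former and 83.3% in the latter.

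**Figure D5:**
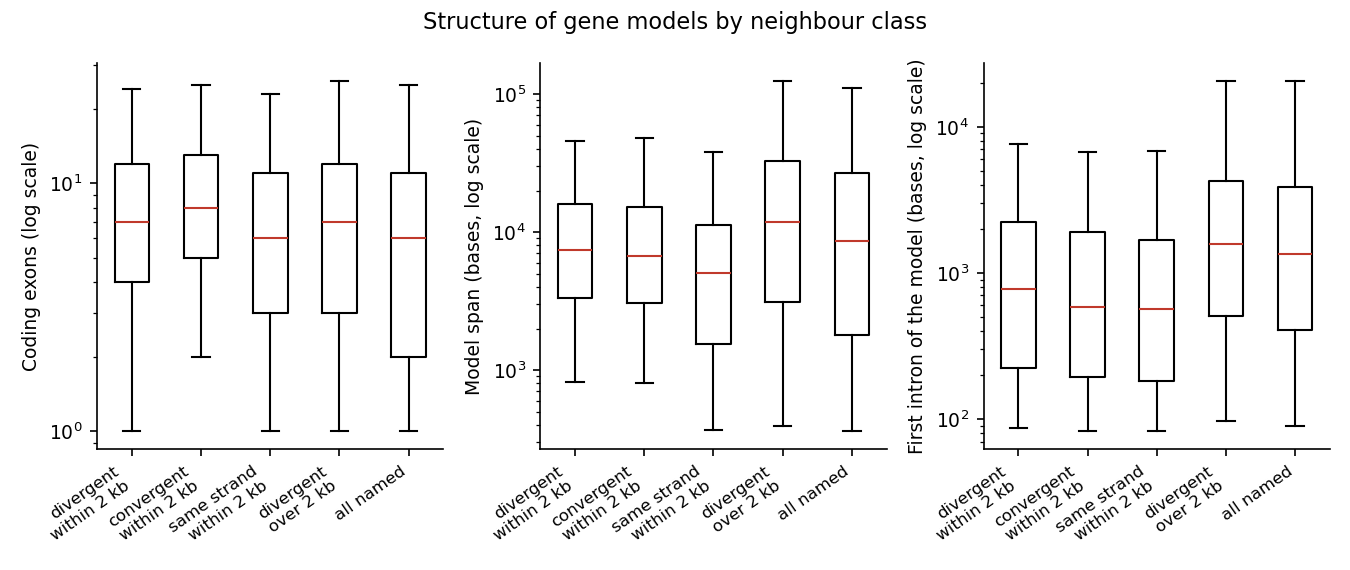
Coding exons, span and first intron of gene models, each on a log axis, by neighbour class. Boxes show the median and quartiles and whiskers the 5th and 95th percentiles. Median spans are 7.39 kb for members, 6.73 kb for close convergent models and 11.8 kb for divergent neighbours over 2000 bases apart.

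Partners of a pair often differed in size. The longer partner spanned a median of 2.88 times the shorter, and 47 pairs (13.4%) had a ratio of at least 10. No such ratio is given for other neighbours, so this is not a trait set apart from theirs. Spearman's rho between partners was 0.192 for span, 0.0713 for coding length and 0.0108 for exon number over the 352 pairs, which share the gene density of their region. For span it was 0.252 over close convergent neighbours and 0.366 over close same-strand neighbours of 2 symbols. Among the pairs with most coding exons were NPHS1 and KIRREL2, both of the kidney filtration slit, with 28 and 31 exons at 1616 bases, PTCD3 and POLR1A with 24 and 34 at 487, ZFYVE26 and RAD51B with 44 and 12, and PDIA3 and STRC with 13 and 39. In the 5 pairs with the largest ratio of span, the shorter partner had 1 or 2 coding exons and a copy suffix. The largest ratio was that of FER, 429 kb long, and C18orf54_copy2, a single-exon model of 0.411 kb. TXNRD2_copy2 and CREM spanned 0.420 and 50.6 kb, UBE2V2_copy4 and SIRPB1 0.415 and 49.6 kb, and NEO1 and UTP4_copy2 121 and 1.03 kb. Only 2 pairs had single-exon models on both sides, EXOC8 with SPRTN_copy2 and RPL36AL with MGAT2.

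The pairs lay in gene-rich regions. A member had a median of 49 other gene starts within 1 Mb, against 51 for close convergent models, 45 for close same-strand models and 26 for all named models. On the outer side of a pair, the gap to the next model had a median of 4.11 kb, against 12.5 kb on the 3′ side of 19897 named models. In 233 of 700 cases (33.3%) it was at most 2000 bases or an overlap, against 16.8% of those models. That outer neighbour lay tail to tail with the member in 393 of 700 cases (56.1%), against 49.1% of all named models with a 3′ neighbour.

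Some pairs followed each other directly. There were 17 such chains with 35 pairs in all. One had 3 pairs, SAFB2 and SAFB, C19orf70 and HSD11B1L, and LONP1 and CATSPERD, over 147 kb of scaffold 14 from 8615544 to 8762493. On scaffold 26, C16orf86 and ENKD1 were followed by PARD6A and ACD within 10.2 kb. On scaffold 34, AGAP2 and TSPAN31 were followed by the cell cycle kinase gene CDK4 and MARCH9 within 30.0 kb.

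Pairs were found on 46 scaffolds, and 340 of the 352 on scaffolds whose annotation reached 1 Mb. Over the 34 scaffolds with at least 200 models, there was a median of 1.82 pairs per 100 models. Scaffold 25 had the most, 3.39 per 100, and scaffolds 32 and 35 had 0. Across these scaffolds, pairs per 100 models had a Spearman's rho of 0.514 with models per Mb. Both share the number of models on a scaffold, so this is a description.

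The scaffold of FGF9, scaffold 38, held 2 pairs, VPS36 and CKAP2 at 206 bases and PROSER1 and NHLRC3 at 1276. They lay 6.55 Mb and 8.22 Mb from the FGF9 start, so 0 pairs were within 2 Mb of it. FGF9 and MICU2 are themselves divergent neighbours, but their facing ends were 132 kb apart. As far or farther apart were 755 of 4415 divergent neighbours (17.1%).

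The later mole build MPIMG_talOcc4v2.1 gave a check of order through its RefSeq gene table, which has no strand. Of 201 pairs whose symbols had 1 model in both tables, 177 (88.1%, Wilson 95% interval 82.8 to 91.8%) were direct neighbours there. When other gene types were left out, 189 of 201 (94.0%) were neighbours. The shares with all gene types were 90.3% of 371 close convergent neighbours, 87.3% of 260 close same-strand neighbours of 2 symbols and 64.4% of 1961 distant divergent ones. With protein-coding genes only they were 96.0%, 93.5% and 88.6%, so the shares of close and distant divergent neighbours lay nearer each other on that count. In the 24 pairs with genes between, 12 had a protein-coding gene there, such as PDIA3 and STRC. For TCP1 and MRPL18 the features between were 2 small nucleolar RNA genes. The intervals cover counting error only.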

How the data were processed

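The authors deposited a gene annotation of build talOcc3 whose positions count bases from 1. Per the file's second column its models came from EVM, exonerate or ALN. The deposited score of a transcript, per the file, rates its match with a named target. Its calculation is not stated, and no gene was ranked by it. The submitters' processing notes name BWA for reads, and contact values of the 2 libraries were not analysed here. Copy suffixes and low-confidence marks were removed from model names to give symbols. Each transcript was joined to the gene record of its parent name on the same scaffold. Models were sorted by start and successive ones compared by strand and distance, with pandas 2.3.3 and SciPy 1.17.1 under Python 3.11.15. In 2 pairs another model reaches into the gap, and 3 members have a name that another record also uses. RefSeq neighbours were read from row order, with a new sequence wherever the start position fell.

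No test was run, since all values belong to 1 annotation and the pairs were chosen by distance and strand. The pairs, the symbol lists and the list of human pairs were chosen with earlier results of these data known. Named genes are listed human pairs, the 10 shortest, the 5 longest and the 5 just outside the limit, pairs of 1 family, the closest pairs of each list, those with most exons or most unequal span, and those within 2 Mb of FGF9, of which there were 0. Others, including the pairs elsewhere on the FGF9 scaffold, reproduction genes, outer chains and single pairs given as examples, were chosen after their values were seen. Some pairs that the rule would name are not reported here. Promoter sequences were not used here. The pair routine was tested on a simulated annotation with planted pairs.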

Additional observations from a re-analysis of the deposited data

How the results depend on the processing

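The number of pairs, 352, stayed within 1.5 times (278 to 415) when unnamed models counted, when scaffolds under 1 Mb, single-exon, non-EVM or copy-suffix models or pairs of 1 symbol were left out, when an overlap of up to 1000 bases was allowed, and when coding exon ends replaced gene ends. By construction it was 214 with a limit of 1000 bases and 690 with 5000, with median distances of 310.5 and 1971.5 bases, and 27 in place of 12 listed human pairs were found with 5000. With unnamed models counted, the median distance was 549 bases, the median exon number 6, and divergent pairs were 14.7% of close neighbours in place of 16.3%. That share was 23.0% without pairs of 1 symbol which removes 638 same-strand neighbours, and 23.9% without copy-suffix models, and the cause was not tested. RefSeq neighbours were 94.0% with protein-coding genes only and 81.0% with symbols of several models included. Mitochondrial ribosomal symbols in a pair rose to 36.4% with 5000 bases, where 8.44% of all symbols were in one, and solute carriers were 0.292% with 1000 (2.65% of all symbols) and 4.96% with 5000. The alternatives on coding exon ends, copy suffixes, pairs of 1 symbol (for distance and share) and lists, and the 4 lists recomputed, were chosen after seeing the data. Promoter sequences and 4C contacts were not run. No paired analysis was possible because there is 1 library per tissue and the annotation has no column for either. Assembly and model ends limit each distance.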
